A study of Homo sapiens with 16 samples.

Results

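The WNT ligands, their Frizzled receptors and the secreted SFRP and DKK antagonists were examined across RWPE1, a widely used non-tumour line of human prostate epithelial cells. Members were taken by symbol from the deposited table: the WNT genes, the FZD genes, SFRP1 to SFRP5 and DKK1 to DKK4. The rule found 37 of the 20166 symbols, each on 1 row: 19 WNT ligands, 10 Frizzled receptors, 4 SFRP genes and 4 DKK genes. The rule goes by symbol alone, and the family was chosen with earlier results of these data known. The groups were cells engineered to over-express a wild-type construct (6 libraries, replicates 13 to 18), cells over-expressing its T164A mutant (4 libraries, replicates 91 to 94) and cells with an empty vector, an altered pTRIPZ (6 libraries, replicates 1 to 6). No age, time or further agent is given in the labels, which also do not say whether libraries are separate cultures or clones. The p-values therefore speak only of the spread from library to library, which may be technical.

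WNT proteins are secreted, lipid-bearing ligands. They bind Frizzled receptors, often together with the co-receptors LRP5 or LRP6. In the canonical branch, binding stops the destruction of β-catenin, which then acts with TCF and LEF factors on target genes. Other WNTs act without β-catenin, on cell polarity and movement. SFRP proteins carry a Frizzled-like domain and bind WNTs outside the cell. DKK1 and its closest relatives block LRP5 and LRP6. In the prostate, WNT signals pass within the epithelium and between epithelium and stroma during growth of the gland.

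Every level below is a deposited log2 value per library, and every difference is a log2 difference with its limma standard error (SE). The adjusted p is two-sided and corrected over all symbols, and a gene was called where it lay below 0.05. Depth was estimated at 12300000 to 19200000 reads. A floor of 3 reads lay at 2.30 on the log2 scale. For a group mean below it the floor stands in, so that the difference is a bound, and no difference is given where both means lie below it. The adjusted p beside a bound tests the difference without the floor, which includes scatter below it. Of the 37 members, 26 lay above the floor in every library, among them all 10 Frizzled receptors, 13 WNT ligands, SFRP1, DKK1 and DKK3. A further 5 did so in every library of at least 1 group: SFRP2, SFRP4, SFRP5, WNT11 and WNT16. The other 6 members did not: WNT1, WNT2, WNT8A, WNT9B, DKK2 and DKK4.

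The distance between libraries, taken over the 547 genes above 11.5 in every library, varied within each group. Vector replicates 1 and 2 were close to each other, as were replicates 3, 4 and 6, while wild-type replicate 14 and T164A replicate 93 stood apart from the rest of their groups. The basal epithelial markers fixed for this line, 14 in all, lay above the floor in every library. The log2 of their summed levels was 17.49 to 17.92 in wild-type libraries and 17.02 to 17.23 in T164A libraries. In vector libraries it was 18.11 to 18.37. Here and for the marker lists below, levels were summed off the log2 scale, so the highest markers weigh most. Luminal markers, 11 in all, summed to 15.74 to 16.80 in wild-type libraries, 10.77 to 10.87 in T164A libraries and 9.15 to 9.33 in vector libraries, with KLK3, KLK2 and HPN below the floor in every T164A library. Fibroblast markers, 8 in all, summed to 10.17 to 10.63 in wild-type libraries, 12.45 to 12.58 in T164A libraries and 10.78 to 11.18 in vector libraries. Of these 8, 6 to 7 lay above the floor in T164A libraries and COL1A2 lay below it in all of them. In the vector libraries COL3A1, DCN, LUM, PDGFRA and PDGFRB never reached the floor. Neuroendocrine markers, 7 in all, summed to 9.62 to 9.94 in wild-type libraries, 9.37 to 9.71 in T164A libraries and 9.40 to 9.74 in vector libraries. Of these, 4 were called higher and 1 lower in T164A against vector, SYP by 2.99 and INSM1 by at least 3.94, and NEUROD1 lay below the floor in every library. Leukocyte markers, 6 in all, summed to 8.70 to 8.90 in wild-type libraries, 8.14 to 8.64 in T164A libraries and 9.37 to 9.89 in vector libraries, with 1 higher and 4 lower in T164A against vector and CD3E below the floor throughout. Endothelial markers, 5 measured, summed to 6.30 to 7.41 in wild-type libraries, 4.47 to 5.21 in T164A libraries and 4.56 to 5.27 in vector libraries, with CDH5 below the floor in every library. The part of the marker shifts in the results below was not tested. In bulk RNA, fewer cells of a type and less RNA per cell cannot be told apart.

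T164A cells had higher levels of most members than vector cells, with WNT5A, WNT5B, WNT11, FZD2, FZD4, FZD7, FZD9, SFRP2 and DKK3 all raised by more than 1 log2 unit. WNT7B, WNT9A, WNT4, FZD6 and FZD10 were lower by more than 1 unit. In wild-type cells fewer members were called against vector, and among members with both group means above the floor FZD9 (2.30) and FZD10 (-1.03) were those that differed by more than 1 log2 unit. In T164A against vector, 23 of the 37 members (62.2%) were called higher and 8 (21.6%) lower. Of all symbols, 37.1% were called higher and 27.2% lower in that comparison. The median difference was 1.0 over the members, or 0.65 with group means below the floor set to it, and 0.11 over all symbols. In wild type against vector, 5 members (13.5%) were called higher and 9 (24.3%) lower, beside 21.0% and 24.5% of all symbols. With the deposited scaling, the members' shares there lay near or below those of the whole table. The median was -0.16 over the members, or -0.01 with the floor applied, and -0.05 over all symbols. In wild type against T164A, 6 members (16.2%) were called higher and 21 (56.8%) lower, beside 26.7% and 35.1% of all symbols. The median was -0.97 over the members, or -0.77 with the floor applied, and -0.08 over all symbols. Both comparisons with the vector use the same 6 vector libraries. Calls with both group means below the floor are within these counts: WNT16 (lower) in wild type against vector, and WNT2 (higher) and WNT1 (lower) in T164A against vector.

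Scaling bore on these counts. Quantile normalization changed the median difference of the 11167 genes with a mean of at least 6. In T164A against vector it was -0.057 with quantile normalization and 0.115 without, and in wild type against T164A it was 0.024 with and -0.116 without. In wild type against vector the median moved less, being -0.099 with quantile normalization and -0.073 without. Quantile normalization left 19 members higher and 10 lower in T164A against vector, while of all symbols 6201 were then higher and 6940 lower. In wild type against vector it left 5 of the 37 members higher and 17 lower, while of all 20166 symbols 3775 were then higher and 6136 lower. Under that scaling the members' share of lower calls was larger than that of all symbols, and their share of higher calls smaller.

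**Figure D1:**
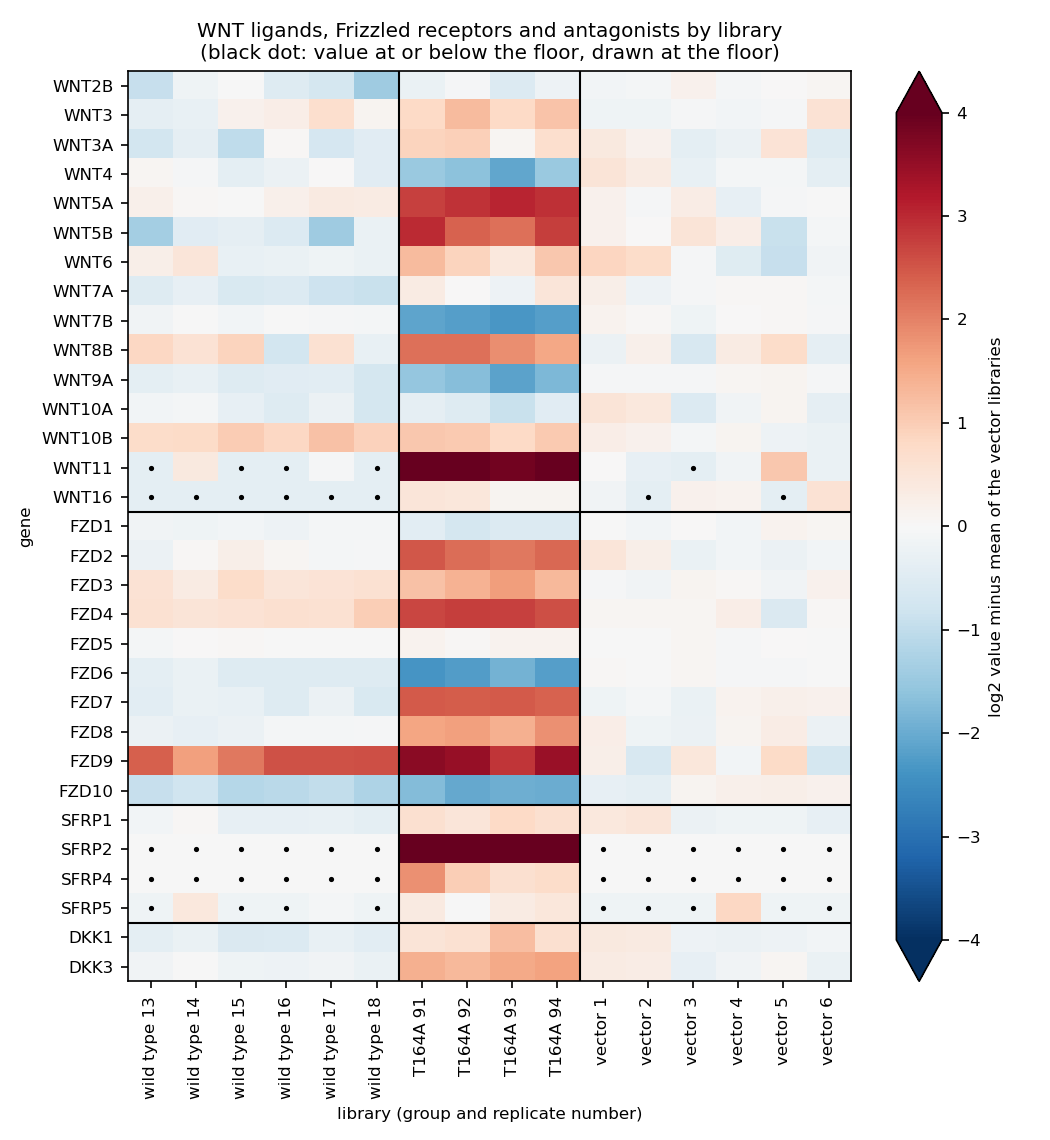
Difference of each library from the mean of the vector libraries, on the log2 scale (colour, clipped at 4 units), for the 31 members above the floor in all libraries of at least 1 group. Columns are the wild-type, T164A and vector libraries, lines separate families, and dots mark values at or below the floor, which are drawn at the floor. The T164A block is red for most genes and deep blue for WNT4, WNT7B, WNT9A, FZD6 and FZD10, with paler blue for others such as FZD1 and WNT10A, while in the wild-type block the gene that stands out is FZD9.

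Among the ligands, WNT5A, WNT5B and WNT11 were raised in T164A cells. WNT5A, which guides cell polarity and outgrowth, stood at 9.07, 9.21, 9.38 and 9.24 in the T164A libraries. Its wild-type libraries ran from 6.32 to 6.69 (median 6.52) and its vector libraries from 6.0 to 6.62 (median 6.28). All 4 T164A libraries lay above all others, and the difference from vector was 2.90 (SE 0.12, adjusted p = 3.41e-17), or 7.49-fold. Wild type against vector, at 0.19 (SE 0.11, adjusted p = 0.154), did not pass the test and came out at -0.11 under quantile normalization. The direct difference of wild type from T164A was -2.71 (SE 0.12, adjusted p = 2.02e-16).

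WNT5B, the close relative of WNT5A, stood at 6.93, 6.28, 6.13 and 6.69 in T164A libraries. Wild-type libraries held 2.5 to 3.68 (median 3.44) and vector libraries 3.03 to 4.46 (median 4.02). Wild type lay -3.31 from T164A (SE 0.30, adjusted p = 4.19e-10). T164A lay above vector without overlap, by 2.58 (SE 0.30, adjusted p = 3.19e-08). Wild type overlapped vector and was lower by -0.73 (SE 0.27, adjusted p = 0.0301), a call that was lost without wild-type replicate 13 or 17 or vector replicate 1, 3 or 4, with differences of -0.59 to -0.70, and with close libraries averaged (-0.43, adjusted p = 0.505). WNT11, a ligand of convergent extension movements and kidney branching, reached 6.86, 6.73, 6.54 and 6.92 in T164A libraries. Wild-type libraries ran from -0.76 to 3.07 (median 1.32), with 2 of 6 above the floor, and vector libraries from 1.10 to 3.78 (median 2.5). The T164A libraries stood clear of both groups, 4.27 above vector (SE 0.56, adjusted p = 2.07e-07), and the wild-type mean was below the floor, at least 4.46 lower than T164A (adjusted p = 3.52e-09). For all 3 ligands a gene on the opposite strand overlaps in a GENCODE annotation of GRCh38 (WNT5A-AS1, FBXL14 and AP000785.1). The sources used here do not state whether counting used strand, so reads of such pairs cannot be told apart. In all, 13 members overlap an opposite-strand gene, and some partners are named with their members below. Of the rest, AL354760.1 and ST7L overlap WNT2B, MIR4288 overlaps FZD3, and RNU6-895P and RPS29P2 overlap SFRP1. AC002465.1 overlaps WNT2 and AC104663.1 overlaps DKK2.

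A second set of ligands was lower in T164A cells than in vector cells: WNT7B, WNT9A, WNT4 and, by less, WNT10A. WNT7B, a ligand of epithelia such as those of lung and kidney, stood at 6.93, 6.83, 6.71 and 6.86 in T164A libraries. Wild-type libraries held 8.90 to 9.04 (median 8.99) and vector libraries 8.87 to 9.19 (median 9.07). T164A lay below both groups in every library, -2.22 from vector (SE 0.07, adjusted p = 4.68e-19), a 4.65-fold lower level. Wild type did not pass against vector (-0.06, SE 0.06, adjusted p = 0.487) and exceeded T164A by 2.15 (SE 0.07, adjusted p = 1.11e-18). WNT9A, which takes part in joint formation, stood at 7.13, 6.97, 6.52 and 6.88 in T164A libraries, against 8.61 to 8.78 (median 8.63) in vector libraries. Wild-type libraries lay between them, from 7.96 to 8.38 (median 8.22), and no group overlapped another. The difference from vector was -1.79 in T164A (SE 0.10, adjusted p = 1.82e-14) and -0.47 in wild type (SE 0.09, adjusted p = 0.000112), and the wild-type call was lost with close libraries averaged (-0.41, adjusted p = 0.0776).

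WNT4, a ligand of gonad and kidney development, stood at 6.63, 6.47, 6.03 and 6.63 in T164A libraries. Wild-type libraries held 7.68 to 8.20 (median 7.98) and vector libraries 7.73 to 8.63 (median 8.03). All T164A libraries lay lower than all others, by -1.68 from vector (SE 0.16, adjusted p = 4.06e-10), while wild type and vector overlapped (-0.17, SE 0.14, adjusted p = 0.366). Wild type exceeded T164A by 1.51 (SE 0.16, adjusted p = 3.44e-09). An annotated opposite-strand gene, AL445253.1, overlaps WNT4. WNT10A, a ligand of teeth and skin appendages, averaged 8.88 in wild type, 8.64 in T164A and 9.20 in vector. Its T164A level was lower than vector by -0.56 (SE 0.16, adjusted p = 0.00343), with libraries of the groups overlapping, and that call was lost with a minimum fold of 1.2. Wild type against T164A did not pass for WNT10A (0.24, SE 0.16, adjusted p = 0.218), though it was called under quantile normalization.

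WNT10B, a β-catenin activating ligand known for holding back fat cell formation, was higher in both kinds of engineered cells. It stood at 7.39, 7.37, 7.12 and 7.37 in T164A libraries, at 7.05 to 7.49 (median 7.18) in wild-type libraries and at 6.06 to 6.59 (median 6.32) in vector libraries. Neither engineered group overlapped the vector, and they overlapped each other. Wild type exceeded vector by 0.91 (SE 0.11, adjusted p = 2.46e-07) and T164A did by 1.0 (SE 0.13, adjusted p = 8.87e-08). The direct difference of wild type from T164A was -0.09 (SE 0.13, adjusted p = 0.554) and came out at 0.16 under quantile normalization.

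WNT8B, a ligand of the developing forebrain, stood at 5.68, 5.69, 5.34 and 5.01 in T164A libraries, at 2.73 to 4.36 (median 4.06) in wild-type libraries and at 2.82 to 4.21 (median 3.45) in vector libraries. The T164A libraries lay above all others, 1.96 above vector (SE 0.34, adjusted p = 1.14e-05), while wild type and vector overlapped (0.31, SE 0.30, adjusted p = 0.444, and -0.07 under quantile normalization). WNT3A, the ligand most used to activate β-catenin in culture, stood at 5.88, 5.92, 5.04 and 5.65 in T164A libraries. Wild-type libraries held 3.96 to 5.03 (median 4.42) and vector libraries 4.46 to 5.52 (median 4.96). T164A overlapped vector and did not overlap wild type, which lay -1.18 below it (SE 0.25, adjusted p = 0.000226). The T164A difference from vector, 0.65 (SE 0.25, adjusted p = 0.0289), was called only under some settings: it came out at -0.05 under quantile normalization and lost its call in 6 of the 10 fits that left out 1 library. Those were T164A replicates 91, 92 and 94 and vector replicates 3, 4 and 6, with differences of 0.54 to 0.64.

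WNT3, needed for the body axis in mice, averaged 5.05 in wild type, 5.95 in T164A and 4.96 in vector, and T164A exceeded vector by 0.99 (SE 0.21, adjusted p = 0.000215). WNT6, an inducer of kidney tubules, averaged 4.98 in wild type, 5.95 in T164A and 5.03 in vector, with T164A higher by 0.92 (SE 0.28, adjusted p = 0.00599). Both calls were lost under quantile normalization, and that of WNT6 also with close libraries averaged. WNT7A, a ligand of limb and female tract patterning, and WNT2B were called against vector in wild type but not in T164A, each lower in wild type by -0.62 (adjusted p = 0.000415 and 0.00395), and both calls were lost with close libraries averaged. Under quantile normalization both genes were also called lower in T164A against vector, the direction of WNT7A being turned. WNT7A averaged 5.83 in wild type, 6.6 in T164A and 6.45 in vector, and WNT2B averaged 6.11 in wild type, 6.46 in T164A and 6.74 in vector. Wild type lay below T164A for WNT7A (-0.77, SE 0.15, adjusted p = 7.35e-05) and did not pass for WNT2B (-0.35, SE 0.19, adjusted p = 0.121).

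WNT16, a ligand of bone and of stromal cells, was near the floor. It stood at 3.18, 3.13, 2.79 and 2.80 in T164A libraries, from -1.14 to 1.81 (median -0.17) in wild-type libraries and from -0.62 to 3.26 (median 2.69) in vector libraries. All T164A libraries lay above all wild-type libraries, and the wild-type mean was at least 0.67 lower (adjusted p = 0.000837). WNT9B, which induces kidney tubules in mice, had a mean of 2.45 in wild type and 2.74 in T164A and lay below the floor in all vector libraries. Its bounds were at least 0.15 higher in wild type (adjusted p = 0.000439) and at least 0.44 higher in T164A (adjusted p = 0.000226). WNT1, WNT2 and WNT8A had group means below the floor in all 3 groups.

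Neighbouring WNT genes in the RefSeq gene table did not all move one way. WNT9A and WNT3A are neighbours, and in T164A against vector they differed by -1.79 and 0.65, the WNT3A value becoming -0.05 under quantile normalization. The neighbours WNT6 and WNT10A differed by 0.92 and -0.56, with the WNT6 call lost under quantile normalization and with close libraries averaged. Of the neighbours WNT10B and WNT1, WNT10B was called higher and WNT1 had both group means below the floor, while WNT3 and WNT9B were both called higher.

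**Figure D2:**
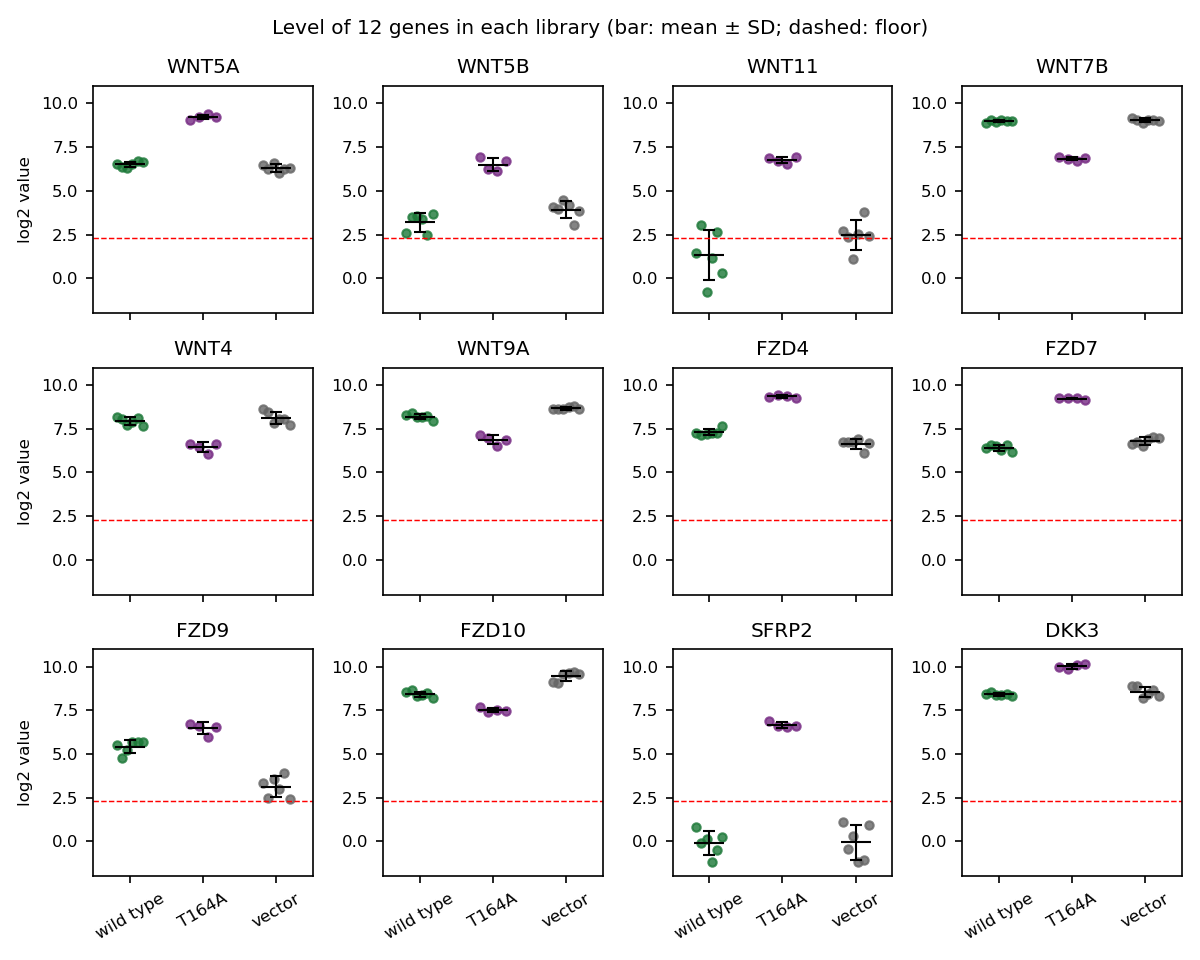
Deposited log2 value (vertical axis) of 12 members in each library of the wild-type, T164A and vector groups, with the mean and SD as bars and the floor of 3 reads dashed. WNT5A, WNT5B, WNT11, FZD7, SFRP2 and DKK3 are high in T164A libraries alone, WNT7B and WNT4 are low there, and FZD9 and FZD10 differ from vector in both engineered groups.

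Among the receptors, 6 of 10 Frizzled genes were higher in T164A cells than in vector cells, 3 were lower and FZD5 did not pass, beside 37.1% higher and 27.2% lower of all symbols. In wild-type cells 3 were higher and 3 lower, beside 21.0% and 24.5%. FZD9, a receptor known from the developing hippocampus, was raised in both. It stood at 6.74, 6.6, 5.99 and 6.57 in T164A libraries, at 4.75 to 5.70 (median 5.58) in wild-type libraries and at 2.42 to 3.90 (median 3.18) in vector libraries. No group overlapped another: T164A was the highest, wild type intermediate and vector the lowest. Wild type exceeded vector by 2.30 (SE 0.25, adjusted p = 3.27e-08) and T164A did by 3.35 (SE 0.28, adjusted p = 5.38e-11). Wild type lay below T164A by -1.05 (SE 0.28, adjusted p = 0.00189).

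FZD4, the receptor of norrin in retinal vessels as well as of WNTs, followed the same order. It stood at 9.33, 9.43, 9.38 and 9.24 in T164A libraries, at 7.16 to 7.64 (median 7.27) in wild-type libraries and at 6.09 to 6.92 (median 6.73) in vector libraries. The 3 groups did not overlap, with differences from vector of 0.65 in wild type (SE 0.11, adjusted p = 2.72e-05) and 2.69 in T164A (SE 0.12, adjusted p = 4.10e-16). PRSS23 overlaps FZD4 on the opposite strand. FZD3, a receptor of planar polarity and axon guidance, stood at 9.04, 9.26, 9.52 and 9.15 in T164A libraries, at 8.18 to 8.60 (median 8.42) in wild-type libraries and at 7.72 to 8.03 (median 7.85) in vector libraries. Again no group overlapped another, and the differences from vector were 0.54 in wild type (SE 0.08, adjusted p = 7.22e-06) and 1.38 in T164A (SE 0.09, adjusted p = 1.01e-12).

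FZD2, FZD7 and FZD8 were raised in T164A cells against vector cells and also against wild-type cells, which lay -2.28, -2.81 and -1.78 from T164A (SE 0.14, 0.11 and 0.13, adjusted p of 1.16e-13, 3.47e-17 and 5.12e-12). FZD7, a β-catenin receptor of stem cells, stood at 9.25, 9.23, 9.26 and 9.17 in T164A libraries, at 6.18 to 6.58 (median 6.45) in wild-type libraries and at 6.53 to 7.02 (median 6.83) in vector libraries. T164A lay above all others, 2.43 above vector (SE 0.11, adjusted p = 4.19e-16) or 5.37-fold. Wild type overlapped vector and was lower by -0.39 (SE 0.10, adjusted p = 0.00246), a call lost with close libraries averaged (-0.37, adjusted p = 0.138). FZD2, a receptor of WNT5A, stood at 8.80, 8.56, 8.43 and 8.63 in T164A libraries, at 6.10 to 6.55 (median 6.32) in wild-type libraries and at 6.06 to 6.80 (median 6.22) in vector libraries. T164A exceeded vector without overlap by 2.28 (SE 0.14, adjusted p = 7.95e-14). Wild type and vector overlapped, with a difference of 0.00 (SE 0.12, adjusted p = 0.997) that became -0.29 and was called (adjusted p = 0.0469) under quantile normalization. FZD8, closely related to FZD5, stood at 8.02, 8.08, 7.86 and 8.29 in T164A libraries, at 6.11 to 6.39 (median 6.29) in wild-type libraries and at 6.20 to 6.75 (median 6.41) in vector libraries. Its T164A libraries lay above all others, by 1.62 from vector (SE 0.13, adjusted p = 2.66e-11).

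FZD6 and FZD10 were lower in both engineered groups. FZD6, a planar polarity receptor of skin and hair, stood at 10.01, 10.13, 10.5 and 10.19 in T164A libraries, at 11.86 to 12.10 (median 11.87) in wild-type libraries and at 12.33 to 12.47 (median 12.37) in vector libraries. The groups did not overlap, and the differences from vector were -0.46 in wild type (SE 0.07, adjusted p = 2.57e-06) and -2.17 in T164A (SE 0.07, adjusted p = 9.18e-19). BAALC-AS1 overlaps FZD6 on the opposite strand. FZD10 stood at 7.70, 7.41, 7.50 and 7.45 in T164A libraries, at 8.22 to 8.64 (median 8.41) in wild-type libraries and at 9.06 to 9.68 (median 9.58) in vector libraries. Here too no group overlapped another. The differences from vector were -1.03 in wild type (SE 0.10, adjusted p = 7.22e-09) and -1.93 in T164A (SE 0.11, adjusted p = 5.72e-14), and wild type lay 0.90 above T164A (SE 0.11, adjusted p = 1.20e-07).

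FZD1 averaged 8.70 in wild type, 8.29 in T164A and 8.84 in vector, lower in T164A than in vector by -0.55 (SE 0.07, adjusted p = 2.22e-07). FZD5, a receptor of the gut epithelium, averaged 8.85 in wild type, 8.99 in T164A and 8.87 in vector. Its differences were small and did not pass: -0.01 in wild type (SE 0.05, adjusted p = 0.876) and 0.12 in T164A (SE 0.06, adjusted p = 0.0838) against vector.

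**Figure D3:**
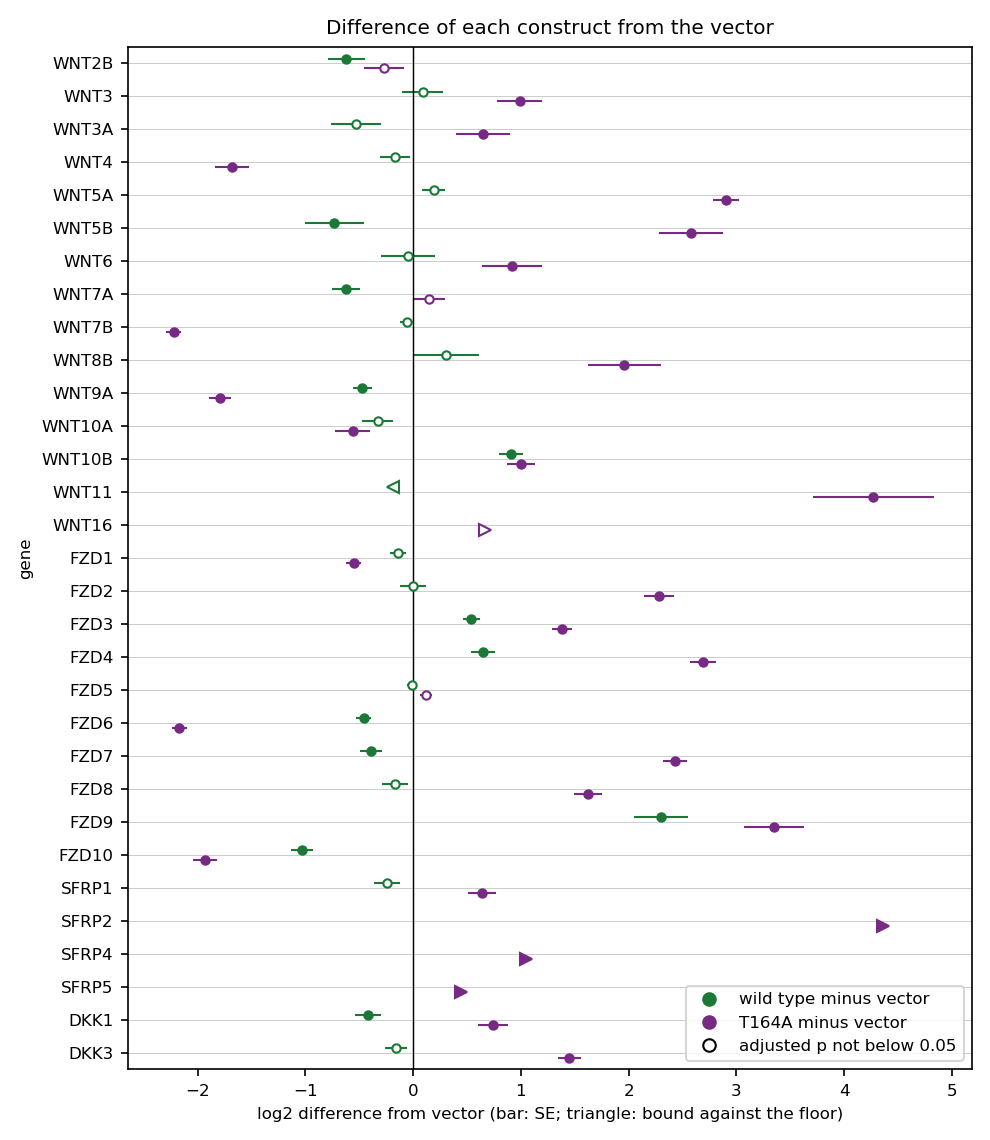
Log2 difference from vector (horizontal axis, bars are SE) for each member above the floor in all libraries of at least 1 group, wild type in green and T164A in purple. Triangles are bounds against the floor and open symbols did not pass an adjusted p of 0.05. Purple points run from -2.22 for WNT7B to 4.27 for WNT11, and the purple triangle of SFRP2 stands at 4.36, while the green points lie within about 1 unit of 0 except for FZD9 at 2.30 and FZD10 at -1.03.

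Of the 8 antagonists, 7 were called higher in T164A cells against vector cells, where 37.1% of all symbols were. None was called higher in wild-type cells against vector cells, where 21.0% of all symbols were, and DKK1 was called lower. In that comparison, however, 3 of the 4 SFRP genes and 2 of the 4 DKK genes had both group means below the floor. SFRP2, a secreted antagonist made chiefly by mesenchyme and fibroblasts, stood at 6.89, 6.58, 6.56 and 6.61 in T164A libraries. It lay below the floor in all 6 wild-type libraries (-1.15 to 0.85, median 0.03) and in all 6 vector libraries (-1.18 to 1.11, median -0.07). The T164A mean was at least 4.36 above either group (adjusted p = 8.89e-12 against vector). SFRP4, another mesenchymal antagonist, stood at 4.13, 3.28, 2.95 and 3.02 in T164A libraries. It too lay below the floor in every wild-type library (-1.10 to 1.10, median -0.06) and every vector library (-1.51 to 1.02, median 0.30). The T164A mean was at least 1.05 above vector (adjusted p = 1.77e-05), and EPDR1 overlaps SFRP4 on the opposite strand. Of the 8 fibroblast markers given above, 5 were called higher and 2 lower in T164A against vector. VIM was higher by 4.79 (SE 0.13) and COL3A1 by at least 4.45, while COL1A1 was lower by -1.62 (SE 0.11) and COL1A2 had both group means below the floor.

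SFRP1, the family member of epithelia and stroma, averaged 8.76 in wild type, 9.64 in T164A and 9.0 in vector. T164A was higher than vector by 0.64 (SE 0.13, adjusted p = 0.000113), with overlap, since vector replicate 2 stood at 9.49 and the lowest T164A library at 9.48. SFRP5 stood at 2.81, 2.44, 2.78 and 2.92 in T164A libraries, at 0.36 to 2.90 (median 1.74) in wild-type libraries and at -1.86 to 3.29 (median 1.47) in vector libraries. The groups overlapped, and a call of at least 0.44 above vector (adjusted p = 0.0414) was lost without any 1 of the T164A replicates or without vector replicate 2 or 3.

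DKK3, a divergent DKK whose effect on WNT signalling varies between cells, stood at 9.98, 9.86, 10.08 and 10.17 in T164A libraries. Wild-type libraries held 8.31 to 8.56 (median 8.40) and vector libraries 8.23 to 8.91 (median 8.54). T164A lay above all others, by 1.45 from vector (SE 0.11, adjusted p = 5.92e-12), and wild type overlapped vector (-0.16, SE 0.10, adjusted p = 0.195), a DKK3 difference that was called under quantile normalization (-0.26, adjusted p = 0.0224). Wild type lay -1.61 from T164A (SE 0.11, adjusted p = 1.03e-12). DKK1, the LRP5 and LRP6 blocker that β-catenin itself induces, stood at 8.36, 8.45, 9.08 and 8.49 in T164A libraries. Wild-type libraries held 7.26 to 7.58 (median 7.44) and vector libraries 7.62 to 8.23 (median 7.70). The groups did not overlap and differed from vector in opposite directions, by -0.42 in wild type (SE 0.12, adjusted p = 0.00616) and 0.74 in T164A (SE 0.14, adjusted p = 3.14e-05). The wild-type call was lost with close libraries averaged (-0.36, adjusted p = 0.228). PRKG1-AS1 overlaps DKK1 on the opposite strand. DKK2 reached a mean of 2.34 in T164A, with 2 of 4 libraries above the floor, at least 0.04 above the vector mean, which lay below the floor. DKK4 lay below the floor in all libraries.

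The comparisons of wild type and of T164A with vector share the vector libraries, so the difference of wild type from T164A was read directly. It came to -0.84 for FZD3 (SE 0.09, adjusted p = 1.61e-08), where both engineered groups exceeded vector, and to -2.04 for FZD4 (SE 0.12, adjusted p = 1.51e-13), where they did too. It came to 1.72 for FZD6 (SE 0.07, adjusted p = 1.40e-16) and 1.33 for WNT9A (SE 0.10, adjusted p = 9.91e-12), where both lay below vector. For WNT10B and WNT9B it did not pass (adjusted p = 0.554 and 0.705).

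Promoter windows from RefSeq (GRCh38.p14, 250 bases before to 50 after the start) were matched for 25 of the 37 members, 28 windows in all. Shown are 3 that follow the patterns above: SFRP2, above the floor in T164A alone, FZD9, higher in both engineered groups, and WNT9A, lower in both. Capitals mark CG dinucleotides, read 5′ to 3′ on the gene's strand.
SFRP2, chr4:153789034-153789333 (- strand): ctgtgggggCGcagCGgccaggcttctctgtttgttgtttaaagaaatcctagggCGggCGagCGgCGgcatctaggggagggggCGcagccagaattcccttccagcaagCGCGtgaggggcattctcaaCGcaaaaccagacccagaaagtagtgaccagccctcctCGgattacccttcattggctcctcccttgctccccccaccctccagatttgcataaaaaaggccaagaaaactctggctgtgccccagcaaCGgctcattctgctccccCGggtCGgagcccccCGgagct
FZD9, chr7:73433528-73433827 (+ strand): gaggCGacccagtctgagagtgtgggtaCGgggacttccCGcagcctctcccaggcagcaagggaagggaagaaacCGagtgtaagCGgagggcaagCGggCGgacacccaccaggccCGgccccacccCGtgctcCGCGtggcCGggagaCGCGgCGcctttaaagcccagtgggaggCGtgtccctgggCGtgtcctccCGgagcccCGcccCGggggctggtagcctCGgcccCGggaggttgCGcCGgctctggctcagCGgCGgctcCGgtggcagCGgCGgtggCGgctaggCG
WNT9A, chr1:227947883-227948182 (- strand): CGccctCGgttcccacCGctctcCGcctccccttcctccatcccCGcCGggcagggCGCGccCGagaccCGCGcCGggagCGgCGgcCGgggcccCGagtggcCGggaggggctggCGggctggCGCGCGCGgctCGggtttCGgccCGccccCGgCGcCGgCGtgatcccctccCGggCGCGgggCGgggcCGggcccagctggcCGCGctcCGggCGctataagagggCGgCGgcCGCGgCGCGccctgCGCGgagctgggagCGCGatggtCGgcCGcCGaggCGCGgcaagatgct

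These windows held 15 CG dinucleotides in SFRP2, 31 in FZD9 and 53 in WNT9A. The median was 29 over the members' windows and 14 over all 35116 windows, with quartiles of 4 and 28. A pair of short motifs was searched on both strands. TAAGTA, a core bound by some NK homeodomain proteins, was in 5.84% of all windows and in 1 member, WNT8B. CTTTGA, the core bound by TCF and LEF factors, was in 12.9% of all windows and in 1 member, DKK1. A match is a description of these letters in this window and nothing more.

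The rest of the WNT pathway was read from lists. The lists share genes, such as AXIN2, LEF1 and LGR5, so their counts are not independent. Among common β-catenin targets, 7 of 20 were higher and 7 lower in wild type against vector, and 12 were higher and 3 lower in T164A against vector. These are 35% and 35% of the list in wild type, beside 21.0% and 24.5% of all symbols, and 60% and 15% in T164A, beside 37.1% and 27.2%. AXIN2, a feedback inhibitor and target of β-catenin, stood at 7.77, 7.86, 7.83 and 7.64 in T164A libraries and at 4.33 to 5.80 in wild-type libraries, and lay below the floor in all vector libraries (-0.70 to 1.79). No group overlapped another, and the bounds against vector were at least 2.62 in wild type (adjusted p = 4.91e-10) and at least 5.48 in T164A (adjusted p = 4.96e-14). LEF1, a partner of β-catenin and also its target, averaged 2.78 in wild type, 8.99 in T164A and 2.36 in vector, a T164A difference of 6.63 (SE 0.31, adjusted p = 4.77e-16). LGR5, the R-spondin receptor of stem cells, averaged 7.95 in T164A and lay below the floor in wild-type and vector means, at least 5.65 lower in each. NKD2, a Dishevelled antagonist, was higher by 2.24 in wild type (SE 0.23, adjusted p = 1.02e-08) and by 4.44 in T164A (SE 0.26, adjusted p = 3.13e-14). TNFRSF19 was higher by 6.73 in wild type (SE 0.22, adjusted p = 2.30e-18) and by 4.54 in T164A (SE 0.25, adjusted p = 8.78e-15), the wild-type level being the higher by 2.19 (SE 0.25, adjusted p = 1.43e-08). CD44, a cell surface glycoprotein on the same list, moved the other way, by -0.69 in wild type and -1.97 in T164A. EPHB3, also on that list, averaged 10.69 in wild type, 9.38 in T164A and 11.26 in vector. CCND1, cyclin D1, was higher in wild type by 0.89 and did not pass in T164A (0.11, adjusted p = 0.156).

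Among co-receptors and alternative receptors, 1 of 7 was higher and 3 lower in wild type, and 3 were higher and 2 lower in T164A, each against vector. The counts of the short lists here and below stand beside 21.0% higher and 24.5% lower of all symbols in wild type, and 37.1% and 27.2% in T164A. ROR2, a receptor kinase through which WNT5A signals, averaged 3.48 in wild type, 7.93 in T164A and 4.48 in vector. It was lower in wild type by -1.0 (SE 0.26, adjusted p = 0.00229, lost with close libraries averaged) and higher in T164A by 3.46 (SE 0.29, adjusted p = 5.61e-11). Its relative ROR1 was higher in T164A by 1.87 (SE 0.15, adjusted p = 1.65e-11). Of the 6 secretion genes, 1 was higher and 3 lower in wild type, and 3 were higher and 1 lower in T164A. WLS, the WNT carrier, was lower in wild type by -0.51 (SE 0.06, adjusted p = 4.69e-08), and PORCN, which adds the lipid, was lower by -0.42 in wild type and -0.31 in T164A. Both PORCN calls were lost under at least 1 alternative. Of 12 other inhibitors measured, of 14 listed, 3 were higher and 1 lower in wild type, and 6 were higher and 1 lower in T164A. GPC3, a glypican, was at least 3.18 higher in wild type and at least 7.38 higher in T164A. KREMEN1, a DKK receptor, was higher in T164A by 1.71 (SE 0.08, adjusted p = 3.02e-16). TPBG, a membrane inhibitor, was lower by -0.90 in wild type and -1.43 in T164A.

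Of 8 R-spondin, LGR and ligase genes, 1 was higher and 3 lower in wild type, and 4 were higher and 2 lower in T164A. ZNRF3, a ligase that removes Frizzled receptors, was higher in T164A by 1.2 (SE 0.09, adjusted p = 3.15e-12), while RNF43, the related ligase, was lower by -0.38 in wild type and -0.59 in T164A. The wild-type call of RNF43 was lost under at least 1 alternative. Of 17 relay and destruction complex genes measured, of 18 listed, wild type had 3 higher and 9 lower, and 7 were higher and 4 lower in T164A, where 41.2% and 23.5% of the list are near the 37.1% and 27.2% of all symbols. CTNNB1, β-catenin itself, was higher by 0.19 in wild type (SE 0.04, adjusted p = 0.000580) and by 1.23 in T164A (SE 0.05, adjusted p = 1.73e-17). CSNK1E, a casein kinase of the relay, was higher in T164A by 1.68 (SE 0.06, adjusted p = 6.58e-18). Of 13 TCF, LEF and nuclear partner genes, calls in wild type numbered 3 higher and 8 lower, and in T164A 9 higher and 4 lower. TLE4, a co-repressor, was lower in wild type by -0.88 (SE 0.10, adjusted p = 6.04e-08) and higher in T164A by 2.46 (SE 0.11, adjusted p = 2.47e-16). Of 14 planar polarity genes, calls in wild type numbered 3 higher and 9 lower, and in T164A 6 higher and 5 lower, which is 42.9% and 35.7% beside 37.1% and 27.2% of all symbols. DAAM2, a formin that binds Dishevelled, was higher in T164A by 5.36 (SE 0.22, adjusted p = 2.95e-17). FUZ, a planar polarity effector of cilia, was higher by 1.0 in wild type (SE 0.09, adjusted p = 2.11e-09) and by 3.14 in T164A (SE 0.10, adjusted p = 5.25e-19).

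**Figure D4:**
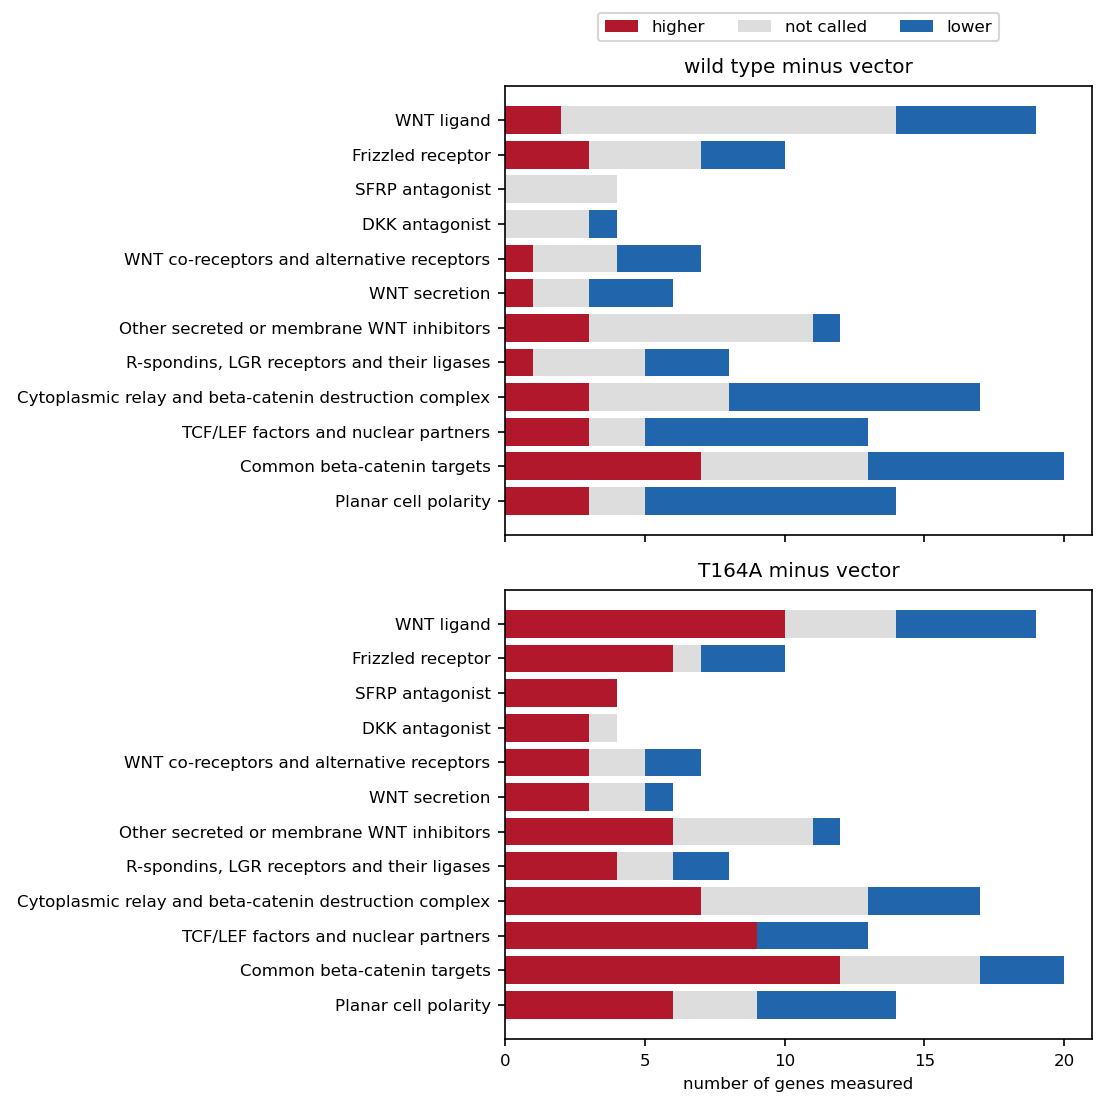
Number of measured genes (horizontal axis) called higher (red), called lower (blue) or not called (grey) in wild type against vector, upper panel, and T164A against vector, lower panel, for the 4 member families and 8 pathway lists. Among common β-catenin targets red takes 7 of 20 in the upper panel and 12 of 20 in the lower, and all 4 SFRP genes are red in the lower panel.

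The vector libraries also varied among themselves. Of the 26 members above the floor in every vector library, replicates 1 and 2 both lay above the other 4 in 8 members (DKK1, DKK3, FZD2, SFRP1, WNT4, WNT6, WNT10A and WNT10B) and both below them in 3 (FZD10, WNT2B and WNT3). Of 13485 genes examined alike, 19.3% lay above and 13.7% below. WNT6 spread most widely of the 26, with replicates 1 and 2 at 5.90 and 5.75 and the others at 4.10 to 4.99. FZD5 and FZD6 spread over 0.13 and 0.14 log2 units across the 6 vector libraries.

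**Figure D5:**
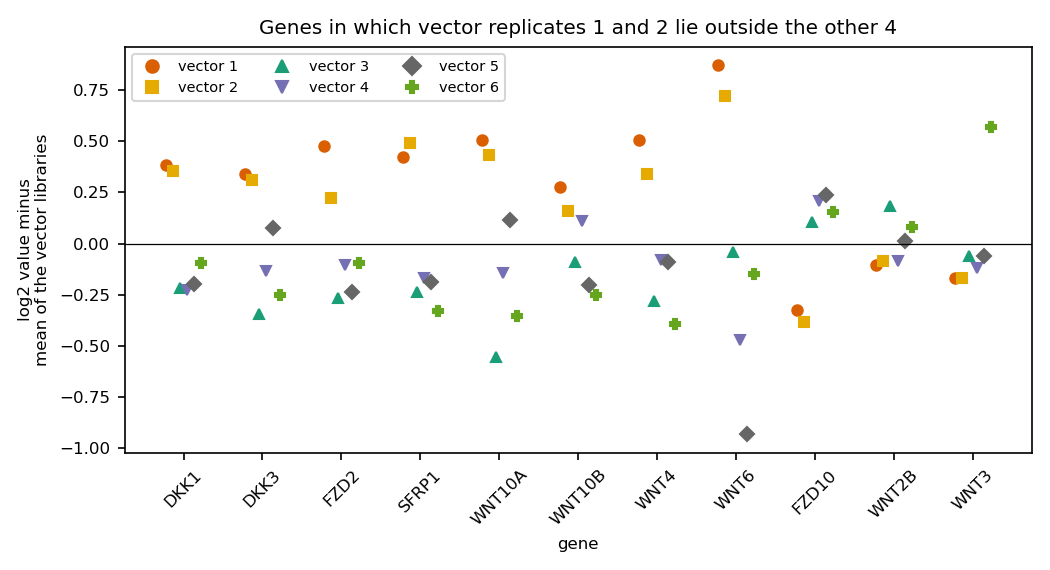
Log2 value minus the mean of the 6 vector libraries (vertical axis) for the 11 members in which vector replicates 1 and 2 (orange and yellow) lie on 1 side of the other 4. WNT6 spans 1.8 log2 units, the widest of those shown.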

How the data were processed

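The 16 libraries are of poly-A RNA and were sequenced on an Illumina HiSeq, per the labels' protocols. GRCh37, DESeq, Cufflinks 2.0.2, TopHat2 2.0.4 and CASAVA 1.8.2 are named in the submitters' processing notes, with no roles or order. The authors deposited 1 table of log2 values for 21594 rows, and the sources used here do not state the transformation. Above 11.5 every value lies on a step of whole reads per library. Lower values carry added scatter, so no count model was applied. The step sizes gave the depths and the floor, which cover counting error only.

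Symbols on several rows kept the row with the highest mean. All 20166 symbols in all 16 libraries entered 1 limma model (limma 3.58.1, R 4.3.3) with a variance trend, 3 differences between groups, Benjamini-Hochberg adjustment and no filter, and it was tested on simulated data. The simulated libraries were drawn independently, so that test could not show how the model behaves with sets of close libraries. Members and lists were chosen with earlier results of these data known. Members were described by library where they lay above the floor in all libraries of a group and were called with 1 log2 unit or more in any comparison. From each list up to 4 genes per comparison, those with the smallest p, could be named. Library distances used only the 547 genes above 11.5 in every library. Libraries within chi-square 38 per degree of freedom of each other formed the sets that were averaged as an alternative. Other alternatives were quantile normalization, filters on low values, fitting only the groups compared, no variance trend, a minimum fold, averaging rows that share a symbol, and leaving out each library in turn. No coordinates of GRCh37 were used. TRABD2A, DRAXIN, AMER1, PECAM1 and the over-expressed gene itself are not analysed here.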

Additional observations from a re-analysis of the deposited data

Results flagged for a closer look

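Single libraries stood apart within a group for 4 members, in 5 of 83 groups examined, and chance gives about 1 in 20. FZD4 was high in wild-type replicate 18 (7.64, the next library being 7.28) and low in vector replicate 5 (6.09, next 6.71). SFRP2 was high in T164A replicate 91 (6.89, next 6.61). WNT10B was low in T164A replicate 93 (7.12, next 7.37), a replicate that also stood apart over the 547 genes used for library distances. WNT3 was high in vector replicate 6 (5.53, next 4.90).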

How the results depend on the processing

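No paired analysis was possible because the groups share no replicate numbers. In wild type against vector, where 9 members were called lower, 17 were under quantile normalization, 3 with a minimum fold of 1.2 and 2 with close libraries averaged, an alternative chosen after seeing the data. Leaving out each library gave 7 to 12. Of all symbols in that comparison, where 4244 were higher and 4939 lower, the minimum fold left 2513 and 1578, and averaging left 2274 and 1547. The counts of members and of all symbols in the other comparisons stayed within 1.5 times under every alternative run. Under quantile normalization the difference of wild type from vector became -0.29 for FZD2, -0.11 for WNT5A and -0.07 for WNT8B, the difference of T164A from vector became -0.05 for WNT3A, and that of wild type from T164A became 0.16 for WNT10B. FZD2 in wild type against vector ranged from -0.05 to 0.09 as each library was left out. The causes of these shifts were not tested. In wild type against vector, the minimum fold ended 6 of the 14 member calls (DKK1, FZD7, WNT16, WNT2B, WNT5B and WNT9A) and averaging ended 7 (the same 6 and WNT7A). In T164A against vector, of 31 calls, quantile normalization ended 4 (SFRP5, WNT3, WNT3A and WNT6), the minimum fold 3 (SFRP5, WNT3A and WNT10A) and averaging 3 (WNT2, WNT3A and WNT6). In wild type against T164A, of 27 calls, the minimum fold ended that of FZD1, quantile normalization that of WNT6, and averaging those of WNT6 and WNT7A. Quantile normalization also added calls: 8 in wild type against vector (DKK3, FZD1, FZD2, FZD8, SFRP1, WNT3A, WNT10A and WNT11), 2 in T164A against vector (WNT2B and WNT7A) and that of WNT10A in wild type against T164A. Of 60 counts of called genes over families and pathway lists, 25 moved by more than 1.5 times with the minimum fold, 17 with averaging and 10 with quantile normalization. Of the 92 calls of single pathway-list genes followed through the alternatives, the minimum fold ended 22, averaging 17 and quantile normalization 6. Differences near the floor of 3 reads, such as those of WNT9B, WNT16, SFRP5 and DKK2, are limited by depth.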
